A study of Mus musculus with 108 samples.

Results

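The members described here were 200 bp stretches of the mouse liver genome (bins) that carried an enhancer state at 3 months of age and the Polycomb state at 12 months. They were selected on the deposited chromatin state labels. A bin was a member when state 3, 4 or 5 in SD 3m became state 6 in either 12 month group (SD 12m, CR 12m) or in both. Of 12313718 autosomal bins, 2736785 were in states 3 to 5 in SD 3m, and 41256 of these (1.51%, 8.25 Mb) were members. State 6 was reached only in SD 12m by 10507 of them (25.5%, SD only), only in CR 12m by 17360 (42.1%, CR only) and in both groups by 13389 (32.5%, both).

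The study profiled 4 histone H3 modifications by chromatin immunoprecipitation and sequencing in livers of C57BL/6 females, fixed in formalin and embedded in paraffin. SD 3m were mice of 3 months on standard diet (8 mouse numbers in the titles, 30 libraries). SD 12m were mice of 12 months on the same diet (8 mouse numbers, 29 libraries), and CR 12m were mice of 12 months kept on 30% caloric restriction from the age of 3 months (9 mouse numbers, 29 libraries). H3K27me3, the mark that defines state 6, came from 7, 8 and 6 libraries in these groups, and H3K4me1, the main mark of state 5, from 8, 6 and 9. All libraries of a group were merged before a hidden Markov model gave each bin 1 of 8 states, so that each group was 1 segmentation without replicates and no difference between groups could be tested. The value of a bin is a label, the read depth behind it is unknown, and intervals given here are Wilson 95% intervals over bins that cover counting error only, since neighbouring bins are not independent. Whole liver was used, so a change in the share of a cell type and a change of chromatin within cells cannot be told apart. From here on, SD and CR without an age are the groups of 12 months.

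Enhancers carry H3K4me1, and active ones also carry H3K27ac. A poised enhancer has H3K4me1 with little acetylation, and many such elements wait for a signal or are used in only some cells of a tissue. Polycomb repressive complex PRC2 deposits H3K27me3 in broad domains over silent genes, many of them developmental regulators or genes of other cell lineages. H3K27me3 and H3K27ac modify the same lysine, so that 1 histone tail cannot carry both. In the states used here, states 3 and 4 are active enhancers, state 5 is the poised enhancer, state 6 is H3K27me3 alone and state 8 (quiescent) has none of the marks.

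The label "enhancer" needs a qualification from the data. Of the members, 36542 (88.6%) started in state 5, 4157 (10.1%) in state 4 and 557 (1.35%) in state 3, whereas state 5 made up 25.3% of all autosomal enhancer bins, state 4 made up 30.2% and state 3 made up 44.6%. The members were therefore mostly poised and not active enhancer chromatin.

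Below, 3 bins show the DNA at the middle of the longest run of each class, and 2 show the DNA just upstream of genes that lead the ranking by start site. They are reference sequence of GRCm38 (mm10), plus strand, 5′ to 3′, with CpG dinucleotides in capitals because CpG density is a known feature of Polycomb targets. The Ebf1 bin (chr11:44900601-44900800, intronic, SD only) was in state 5 in SD 3m, in state 6 in SD and in state 8 in CR. The Htra1 bin (chr7:130949401-130949600, intronic, CR only) was in state 5 in SD 3m and SD and in state 6 in CR. The bin between Enthd1 and Grap2 (chr15:80571001-80571200, intergenic, both) went from state 5 to state 6 in both groups, as did the bins upstream of Cd34 (chr1:194938601-194938800) and Prkcq (chr2:11171601-11171800), which end 21 and 105 bp before the annotated genes.
Ebf1: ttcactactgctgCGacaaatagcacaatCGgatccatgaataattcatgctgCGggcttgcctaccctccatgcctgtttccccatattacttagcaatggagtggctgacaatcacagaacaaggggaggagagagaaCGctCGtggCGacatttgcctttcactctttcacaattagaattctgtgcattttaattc
Htra1: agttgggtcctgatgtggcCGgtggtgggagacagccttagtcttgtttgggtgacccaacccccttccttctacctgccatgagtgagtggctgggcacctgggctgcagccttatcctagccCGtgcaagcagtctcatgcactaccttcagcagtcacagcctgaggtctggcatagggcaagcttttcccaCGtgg
Enthd1-Grap2: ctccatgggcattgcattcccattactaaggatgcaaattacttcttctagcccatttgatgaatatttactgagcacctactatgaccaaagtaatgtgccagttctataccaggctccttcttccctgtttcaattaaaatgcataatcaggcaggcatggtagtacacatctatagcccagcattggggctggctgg
Cd34: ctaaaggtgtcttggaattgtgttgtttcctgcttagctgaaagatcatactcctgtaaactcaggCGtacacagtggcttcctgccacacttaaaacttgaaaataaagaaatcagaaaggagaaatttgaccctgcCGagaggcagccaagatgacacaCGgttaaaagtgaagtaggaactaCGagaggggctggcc
Prkcq: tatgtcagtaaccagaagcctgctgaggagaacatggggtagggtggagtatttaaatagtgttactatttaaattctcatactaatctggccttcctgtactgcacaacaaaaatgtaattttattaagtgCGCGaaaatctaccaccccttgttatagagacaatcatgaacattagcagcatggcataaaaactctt
The Ebf1 bin held 6 CpG, the Cd34 bin 4, the Htra1 bin 3, the Prkcq bin 2 and the Enthd1-Grap2 bin 0. The 5 bins thus ranged from CpG-free to 6 CpG, and none of them overlapped an annotated exon.

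Few enhancer bins turned, and the share depended on how active the bin was at 3 months. In SD, 23896 of 2736785 enhancer bins (0.873%, interval 0.862 to 0.884) were in state 6. In CR, 30749 (1.12%, interval 1.11 to 1.14) were. Of the 691200 poised bins, 3.19% (interval 3.15 to 3.23) were in state 6 in SD and 3.89% (interval 3.85 to 3.94) in CR. Of the 826207 bins of state 4, 0.210% and 0.407% were, and of the 1219378 bins of state 3 only 102 (0.00836%) and 497 (0.0408%). Each step from active to poised raised the share in both groups. For comparison, 11.3% of the quiescent bins of SD 3m were in state 6 in SD and 7.38% in CR, so gain of state 6 was less frequent at poised enhancers than in quiescent chromatin.

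**Figure D1:**
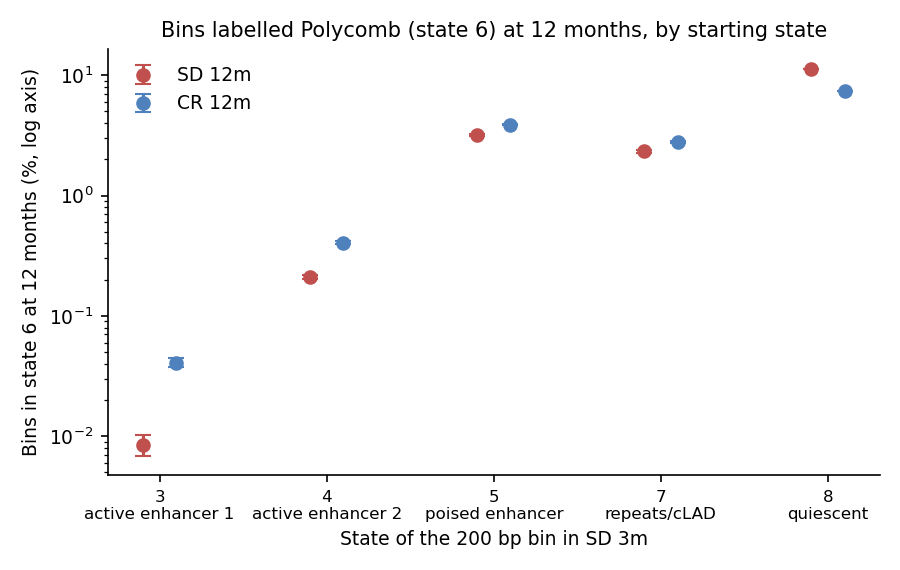
Percent of 200 bp autosomal bins in state 6 (Polycomb) at 12 months on a log axis, by their state in SD 3m. Points are the SD and CR segmentations and bars the Wilson 95% intervals over bins. The share rises from 0.00836% and 0.0408% (SD and CR) for state 3 to 3.19% and 3.89% for state 5, and CR lies above SD for states 3, 4, 5 and 7 but below it for state 8 (7.38% against 11.3%).

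The enhancer bins went against the quiescent bins in the order of the diets. The SD share was 0.777 times the CR share at enhancer bins and 1.54 times at quiescent bins. CR had the higher share on 17 of 19 autosomes, the exceptions being chromosomes 13 (0.757% in SD, 0.715% in CR) and 18 (0.610% and 0.609%). Across autosomes the share ran from 0.358% on chromosome 19 to 1.43% on chromosome 2 in SD, and from 0.442% to 1.85% on these same chromosomes in CR. With poised bins alone the SD and CR shares on chromosome 2 were 4.90% and 5.93%, and on chromosome 19 they were 1.27% and 1.48%. The groups also differed in the number of merged libraries (6 for H3K27me3 in CR against 8 in SD), and the part of library number in these shares was not tested.

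In both groups 0.489% of all enhancer bins were in state 6. These 13389 shared bins were 56.0% of the SD bins and 43.5% of the CR bins, and both comparisons use the same SD 3m segmentation. What became of a bin in the other 12 month group differed between the classes. Of the SD-only bins, 68.6% were quiescent in CR (state 8), 21.8% were still poised and 9.31% were in state 4. Of the CR-only bins, 44.3% were in state 8 in SD, 18.9% were poised and 36.1% were in state 4, an active enhancer state. An enhancer state was thus held in the other group by 55.3% of CR-only bins and by 31.3% of SD-only bins. Of all poised bins of SD 3m, 17.5%, 33.5% and 30.3% were in states 3, 4 and 5 in SD, and 27.2%, 24.9% and 25.2% in CR. State 8 held 15.1% of them in SD and 18.6% in CR. Both classes were thus less often in an enhancer state than poised bins as a whole. The share of CR-only bins in state 4 was near that of all poised bins.

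**Figure D2:**
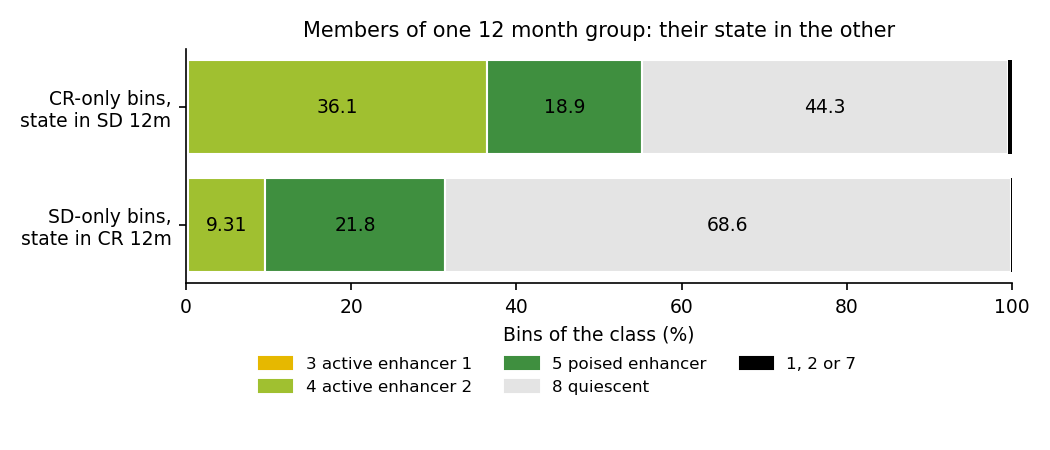
State of the SD-only members in CR and of the CR-only members in SD, as percent of the bins of each class, with each state in its own colour. CR-only members were in active enhancer state 4 in 36.1% of bins, SD-only members in 9.31%, and the quiescent state held 44.3% and 68.6%. Of all poised bins of SD 3m (not drawn), 33.5% were in state 4 in SD and 24.9% in CR.

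The reverse direction was more frequent for state 4 and less frequent for the poised state. From state 5 to state 6 went 22055 bins in SD and 26890 in CR, against 2299 and 9480 from state 6 to state 5. From state 4 to state 6 went 1739 and 3362 bins, against 56765 and 40210 from state 6 to state 4. For state 3 the counts were 102 and 497 to state 6 against 106 and 1438 from it, so that in SD both directions were nearly equal. Over states 3 to 5 together, 23896 bins in SD and 30749 in CR turned to state 6, while 59170 and 51128 left it for an enhancer state. The net exchange with state 6 was therefore toward Polycomb at poised chromatin and away from it at state 4. These directions were not particular to state 6. From state 5 to state 8 went 104711 bins in SD and 128519 in CR, against 23657 and 39788 back. From state 8 to state 4 went 195857 and 224840 bins, against 138134 and 131739 back.

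Members lay in continuous stretches. They formed 3037 stretches with a median length of 1600 bp (quartiles 800 and 3400 bp) and a longest of 37600 bp. Stretches of at least 1 kb held 94.1% of the members, and the 117 stretches of at least 10 kb held 21.7%. Most stretches were of 1 class (807 SD only, 1135 CR only, 487 both), and 608 mixed classes. Seen from the enhancers of SD 3m, 2802 of 49022 continuous enhancer stretches (5.72%) held a member. Of these, 1359 (48.5%) turned over their whole length when each bin could be in state 6 in SD or in CR, and they held 44.4% of the members. Members were also gathered along the genome, since 948 of 2473 blocks of 1 Mb held any and 118 blocks held 50% of them.

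The members lay close to Polycomb chromatin that was already there at 3 months. In SD 3m, 18.2% of members were within 1 kb of a state 6 bin and 58.3% within 10 kb, against 1.22% and 8.56% of all enhancer bins and 2.63% and 15.5% of all poised bins. The median distance was 6800 bp for members, 60200 bp for poised bins and 85000 bp for all enhancer bins. Bins of the class both were nearest (median 4200 bp, 24.1% within 1 kb), and SD-only (8400 bp, 16.3%) and CR-only bins (8200 bp, 14.9%) were alike in this. Of the ends of member stretches, 31.0% touched state 6 in SD 3m, against 7.40% of the ends of all enhancer stretches. State 6 stood on both sides of 353 stretches (11.6%), on 1 side of 1179 (38.8%) and on neither side of 1505 (49.6%), so that about as many stretches arose away from a 3 month Polycomb border as at one.

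**Figure D3:**
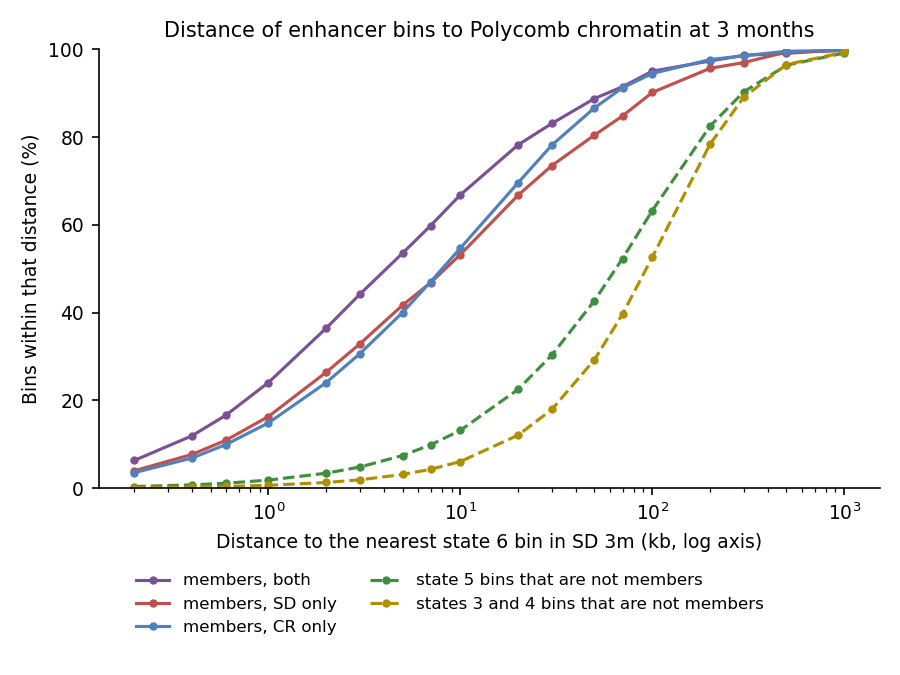
Cumulative percent of enhancer bins of SD 3m within a given distance (kb, log axis) of the nearest state 6 bin of SD 3m, for the 3 classes of members (solid) and for enhancer bins that were not members (dashed). At 10 kb the members of both groups had reached 66.8%, SD-only members 53.2%, CR-only members 54.7%, other poised bins 13.2% and other bins of states 3 and 4 6.07%.

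At 12 months the members were parts of larger Polycomb stretches. In SD, 1502 state 6 stretches held members (median length 14600 bp), and of their bins 60.1% had been in state 6 at 3 months, 28.1% in state 8 and 11.5% in states 3 to 5. In CR, 1703 stretches held members (median 13800 bp), with 61.5%, 23.4% and 14.5%. Only 172 stretches in SD and 215 in CR consisted of members alone.

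The 5 longest stretches each overlapped the annotated span of a protein-coding gene. The longest was 37.6 kb inside Slc8a1, the sodium-calcium exchanger (chr17:81511201-81548800, intronic). All of its 188 bins were poised in SD 3m, 138 were in state 6 in SD and 187 in CR. The next was 37 kb at Cytip, a regulator of leukocyte adhesion (chr2:58161401-58198400), with 185 poised bins in SD 3m, 137 bins in state 6 in SD and all 185 in CR. Curated gene bodies covered only 13090 bp of this stretch. It also overlapped the long non-coding RNA gene Gm13546, whose 67 body bins were all members. In Prkcb, protein kinase C beta of B cell receptor signalling, 178 poised bins (chr7:122291001-122326600, intronic) became 66 bins of state 6 in SD and 178 in CR. A stretch of 27.6 kb in Cachd1 (chr4:100840201-100867800) had 138 poised bins, of which 95 were in state 6 in SD and 129 in CR. A stretch of 28.4 kb over Htra1, described below with its run, had 1 bin in state 6 in SD and all 142 in CR. In each of the 5 stretches CR had more state 6 than SD.

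Among runs of a single class, the 3 longest SD-only ones were shorter than the 3 longest CR-only ones. The longest SD-only run was 15.6 kb in Ebf1 (chr11:44892801-44908400), a transcription factor of B lymphocyte commitment that mesenchymal cells also use, and its 78 bins were all quiescent in CR. It was followed by 14 kb in the potassium channel gene Kcnk1 (chr8:125998001-126012000) and 13.4 kb in Fer1l6 (chr15:58592801-58606200). The longest CR-only run was 28.2 kb over Htra1, a secreted serine protease (chr7:130935401-130963600), and all of its 141 bins kept an enhancer state in SD. The same held for the 130 bins (26 kb) at H2-Eb1 and H2-Eb2, class II histocompatibility genes of antigen-presenting cells (chr17:34314601-34340600), and for 117 of 118 bins (23.6 kb) at Dusp2 and Astl (chr2:127317401-127341000). Dusp2 encodes a phosphatase that curbs kinase signalling in leukocytes.

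The longest runs in state 6 in both groups were wholly poised at 3 months. They were 26.2 kb at Enthd1 and Grap2 (131 bins, chr15:80558001-80584200), 20.2 kb in Mir100hg, the host of Mir125b-1 (101 bins, chr9:41576601-41596800), and 19.8 kb in Slc8a1 (99 bins, chr17:81528801-81548600). The Enthd1-Grap2 run had state 6 on both sides in SD 3m.

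**Figure D4:**
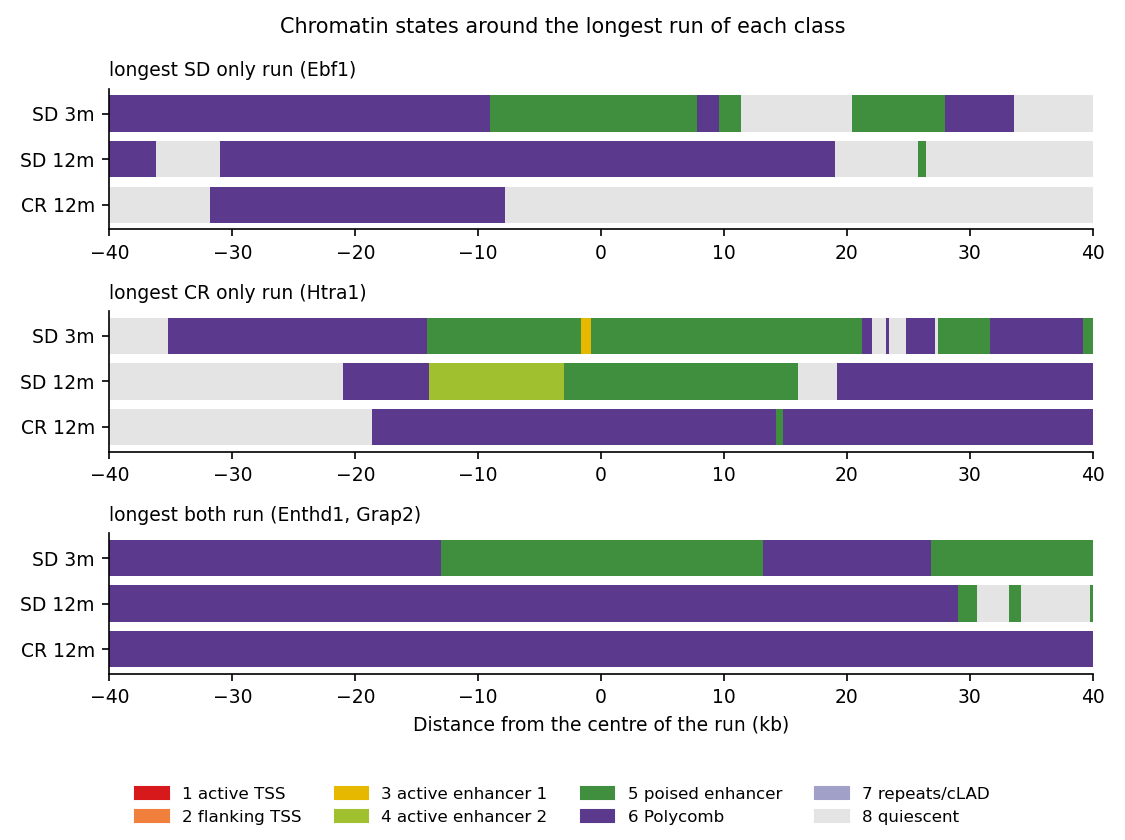
Chromatin states of SD 3m, SD and CR within 40 kb of the centre of the longest SD-only run (Ebf1, 15.6 kb), CR-only run (Htra1, 28.2 kb) and run of both (Enthd1 and Grap2, 26.2 kb). Within the run itself, an enhancer state in SD 3m (green, with a short yellow part at Htra1) is state 6 in SD and quiescent in CR at Ebf1, state 4 or 5 in SD and state 6 in CR at Htra1, and state 6 in both at Enthd1 and Grap2.

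Members were more frequent near transcription start sites (TSS) than other enhancer bins. Within 2 kb of a TSS lay 11.0% of members, 5.26% of all enhancer bins and 5.59% of poised bins, while 9.40%, 21.2% and 14.6% lay within 5 kb of a bin in a TSS state (1 or 2). Gene bodies covered 55.0% of member bases, 65.4% of enhancer bases and 66.2% of poised bases. At least 1 member lay within 2 kb of the TSS of 663 of 14982 autosomal genes with an enhancer bin there (4.43%). The TSS bin itself was a member for 216 of 4679 genes whose TSS bin was in states 3 to 5 (4.62%), 58 of them SD only, 67 CR only and 91 both, and 99 of the 216 genes already had state 6 in the window in SD 3m. Of the 663 genes, 25.2% had state 1 or 2 in the window in SD 3m, 15.5% in SD and 9.80% in CR, so that most of these promoters lacked the active TSS states already at 3 months.

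In 32 protein-coding genes all 21 bins of the TSS window were members, in 11 of them all in both groups, in 12 all CR only, in 2 all SD only and in 7 mixed. For the 11 genes all 21 bins of the TSS window were in states 3 to 5 in SD 3m and in state 6 in both 12 month groups. They were Cd34, a surface protein of endothelial and blood progenitor cells, Prkcq, protein kinase C theta of T cell receptor signalling, the growth factor gene Fgf2, Postn (periostin, a matrix protein of fibroblasts), Fcrl1, a B cell receptor-like protein, Jakmip1, the chloride channel gene Ano1, Prkar2b, a regulatory subunit of protein kinase A, Enthd1, Grap2, an adaptor of T cell signalling, and Fpr2, a formyl peptide receptor of myeloid cells. In 10 of them all 21 bins were poised at 3 months, whereas the TSS bin of Postn was in state 3 and 10 of its 21 bins were poised. In the potassium channel gene Kcnj10 and the elastin cross-linking enzyme gene Loxl1, all 21 bins were in state 6 in CR, and 17 and 16 in SD. In Hoxa3, a homeobox gene, 21 were in SD and 15 in CR.

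Counted over gene bodies (the longest curated transcript), at least 1 member lay in 1000 of 16327 genes with an enhancer bin there (6.12%), and 1.27% of body enhancer bins were members. Cachd1 held most (354 members of 429 enhancer bins), followed by Fbn1, which encodes fibrillin-1 of elastic microfibrils (306 of 431), Ebf1 (275 of 535), the LIM cofactor gene Ldb2 (265 of 1052), Slc8a1 (258 of 530) and Runx1, a transcription factor of blood cells (250 of 542). Prkcb (240 of 303), Arhgap15 (230 of 453), Rnf150 (206 of 559) and Grap2 (205 of 265) completed the first 10. The classes differed among these genes. Runx1 had 4 SD-only, 169 CR-only and 77 shared bins, and Ebf1 had 144, 43 and 88. Grap2 and Arhgap15 had 0 SD-only bins.

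Genes of hepatocytes were without members. In 6 lists of hepatocyte function, 108 of 114 autosomal genes had an enhancer bin in the TSS window, and none of these had a member (0 of 16 transcription factors such as Hnf4a, 0 of 24 plasma proteins, 0 of 17 genes of cytochromes P450 and bile acids, 0 of 17 of gluconeogenesis, amino acids and urea, 0 of 21 of lipid and sterol synthesis, and 0 of 13 of fatty acid oxidation and fasting). In their bodies 0 of 13416 enhancer bins were members, which would allow a share of up to 0.0224% if bins were independent. Neighbouring bins are not independent, so this limit is too narrow. No member was found although 2933 of these bins were poised, the state that turned in 4.58% of body bins over all genes. No member lay in the TSS window of the 14 genes of the growth hormone and insulin axis, the 16 of the circadian clock, the 16 of Polycomb and Trithorax and the 19 of interferon and inflammation that had an enhancer bin there. Over all such genes the share was 4.43%, so a count of 0 in lists of this size is near it. In gene bodies these lists also had 0 members, among 4507, 5429, 5021 and 471 enhancer bins (875, 1398, 880 and 142 of them poised). The absence in gene bodies was thus not particular to the hepatocyte lists.

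**Figure D5:**
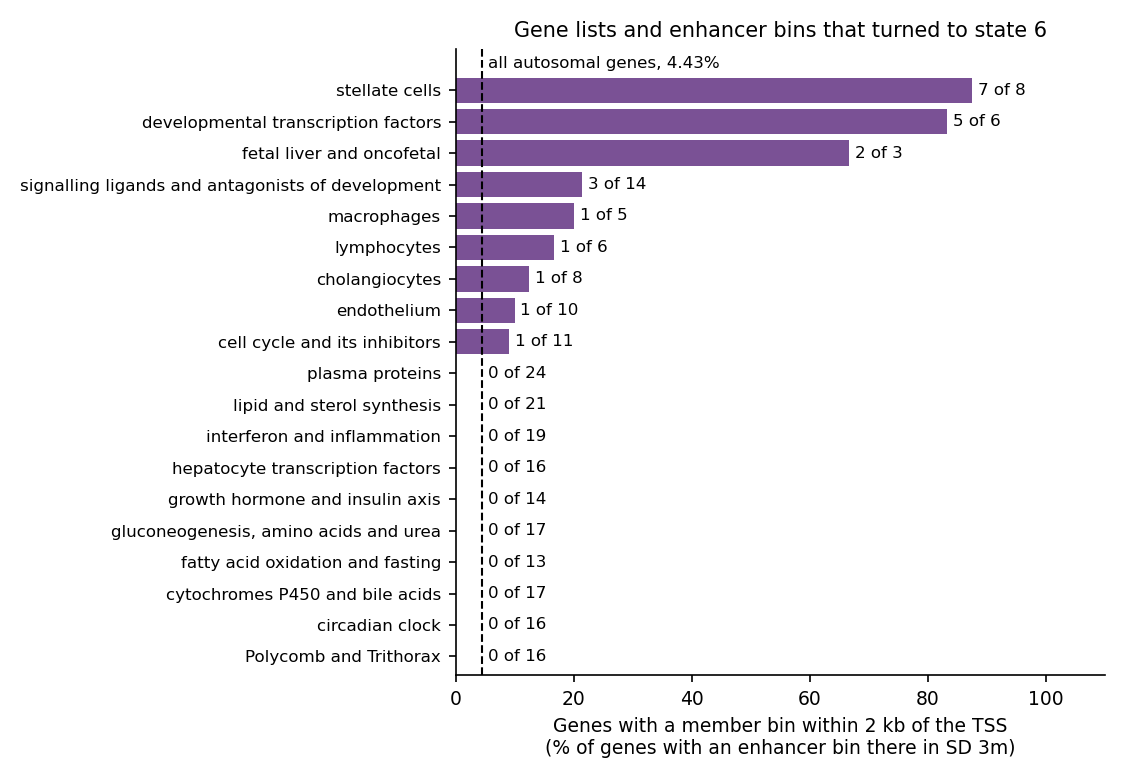
Percent of genes with a member bin within 2 kb of the TSS, among the autosomal genes of each list with an enhancer bin there in SD 3m (counts at the bars). The dashed line is the share over all autosomal genes, 4.43%. Stellate cell markers (7 of 8) and developmental transcription factors (5 of 6) stand highest, and 10 lists, 6 of them of hepatocyte function, hold no member.

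Markers of other liver cells held members, unevenly between cell types. Over 5 lists of non-parenchymal cells, 11 of 37 genes with an enhancer bin in the window had a member there, and 341 of 3844 body enhancer bins (8.87%) were members. Among poised body bins alone these were 13.8%, beside 4.58% over all genes. Of the 11 genes 7 were stellate cell markers. The endothelial list lay below the share over all genes, with 4 of 1626 body enhancer bins (0.246%) and 0.561% of its poised body bins. The lists held few genes, and in the window the other 4 lists rest on 1 gene each. Of 8 markers of stellate cells, the vitamin A storing pericytes of the liver, with an enhancer bin in the window, 7 had a member (Pdgfrb, Des, Col1a1, Col3a1, Rgs5, Ngfr and Dcn). Pdgfrb had only 4 members, and 17 of its 21 bins in SD and all 21 in CR were in an enhancer state. Acta2, the marker without a member, had 21 bins in an enhancer state in both groups. In the bodies of Reln, Pdgfrb and Dcn, 0 of 519, 156 and 162 poised bins were members. In Col1a1, the main fibrillar collagen chain, 21 bins were poised in SD 3m, 21 kept an enhancer state in SD and 21 were in state 6 in CR. In Col3a1 the order was the opposite, with 21 bins of state 6 in SD, 9 of them members, and 0 in CR. Des (5 members) and Ngfr (8 members) had 21 of 21 bins in state 6 in both groups. Dcn (decorin) differed from the others because its TSS bin was in state 1 in SD 3m, and 14 bins were in state 6 in SD and 21 in CR.

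In each of the other cell type lists 1 gene had a member in the TSS window. These were Adgre1 (F4/80, a macrophage receptor, 12 SD-only bins, 21 bins of state 6 in SD and 0 in CR), the T cell gene Cd2 (7 CR-only bins, 0 and 21 bins of state 6), the endothelial cadherin gene Cdh5 (3 SD-only bins, 5 and 0 bins of state 6) and the bile duct keratin gene Krt7 (11 SD-only bins, 21 and 0 bins of state 6). The TSS bin of Cdh5 went from state 8 to state 1 in SD and to state 4 in CR, where 18 bins of its window were in an enhancer state. The lists had 5, 6, 10 and 8 genes with an enhancer bin in the TSS window. Cell type markers therefore moved in either direction between the diets, gene by gene. Whether the share of these cells differed between the livers was not tested.

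Developmental genes held some of the members. Of 31 developmental transcription factors 6 had an enhancer bin in the window and 5 of the 6 had a member (Pax6, Pax9, Lhx2 and Msx1 among them). Only 1 gene of the list had 5 or more member bins. Lhx2 had 2, and 19 of its 21 bins in SD and all 21 in CR were in an enhancer state. State 6 was already in the window of 87.1% of the 31 genes at 3 months. In Pax9 and Msx1 state 6 already held 17 bins at 3 months and took the remaining 4 in both groups. Of signalling ligands and antagonists 3 of 14 had a member (Wnt7b, Fgf8 and Gdf6), of fetal and oncofetal genes 2 of 3 (Igf2bp3 and Hmga2), and of cell cycle genes 1 of 11 (Cdkn2b). Igf2bp3, an RNA-binding protein of fetal tissues, went from 19 poised bins to 21 bins of state 6 in SD and 9 in CR. In Hmga2 all 21 bins were in state 6 in both.

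Gene families taken by their symbols extended these lists (families and the genes named from them were chosen after the values were seen). Over all genes 1.27% of body enhancer bins and 4.58% of poised body bins were members. Poised bins were 25.7% of body enhancer bins over all genes, but 69.1% in H2 genes and 84.4% in Hox genes. Of body members over all genes, 26.2% were SD only and 39.4% CR only. Histocompatibility genes (H2) had members in 129 of 492 body enhancer bins (26.2%), and all 129 were CR only, in 5 genes on chromosome 17 (H2-Oa, H2-DMb2, H2-Aa, H2-Eb1 and H2-Eb2). Most of them lay in the neighbours H2-Eb2 (75) and H2-Eb1 (11), within the single 26 kb CR-only run described above. Chemokines and their receptors had 60 of 759 (7.91%), of which 57 were CR only, all in the neighbours Ccr2 (25) and Ccr3 (32). Interleukins and their receptors had 136 of 4874 (2.79%), with 97 CR-only and 4 SD-only bins, 59 of the CR-only bins in Il2ra. CD molecules had 367 of 4487 (8.18%), with 118 SD-only and 152 CR-only bins. The split of the CD molecules in the body was no more skewed (32.2% SD only, 41.4% CR only) than that over all genes, and in their TSS windows the order was reversed (20 SD-only and 12 CR-only bins). The H2 and chemokine families had 0 SD-only bins.

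The Hox genes had 17 SD-only, 4 CR-only and 25 shared members among 340 body enhancer bins (13.5%). Collagens had 387 of 4259 (9.09%), in 10 of 30 genes, with 114, 167 and 106 bins of these classes, led by Col5a1 (147 members, 131 of them CR only). Potassium channels had 471 of 5584 (8.43%) and protein kinase C genes 331 of 5720 (5.79%), the latter in Prkcb and Prkcq alone. Among poised body bins alone, members were 14.6% in Hox genes, 17.4% in collagens, 15.8% in potassium channels and 15.5% in protein kinase C genes. Over all genes they were 4.58%. Apolipoproteins, complement, coagulation and serpin genes, and ribosomal proteins had no member in 382, 3173 and 2081 body enhancer bins. Of the cytochromes P450, 3 of 76 genes with an enhancer bin in the body had members (57 of 5027 bins, 1.13%), namely Cyp1b1, Cyp26b1 and Cyp4x1, and Cyp1b1 held 42. These P450 shares were below those over all genes (6.12% of genes and 1.27% of bins).

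In DNA content the members were close to other enhancer bins. GC content was 44.7% in members, 44.0% in all enhancer bins and 45.5% in poised bins. CpG density was 12.0, 9.94 and 11.0 per kb, highest in members of both groups (12.9) and lowest in CR-only members (11.0). Repeats took 21.5%, 26.2% and 25.4% of bases.

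Short motifs were searched on both strands. Against all enhancer bins, the GC box, PU.1, ETS and CTCF letters stood out as more frequent in members. Most members started as poised bins. Against these, the GC box, PU.1, ETS, CEBP, GATA, HNF1 and FOXA letters were moderately more frequent in members. The CTCF, E-box and HNF4A letters were slightly less frequent. The ETS and HNF4A shares rest on few bins, and no difference was tested. The forkhead letters TGTTTAC (FOXA) stood in 2.97% of member bins, 3.00% of all enhancer bins and 2.90% of all autosomal bins, beside 2.76% of poised bins. The letters CAAAGTCCA (HNF4A), a site of the hepatocyte nuclear receptor, stood in 0.257%, 0.290% and 0.250%, beside 0.280% of poised bins. The letters GGGCGG (GC box), which contain a CpG, were found in 3.79% of members, 2.52% of enhancer bins and 1.95% of autosomal bins, beside 3.40% of poised bins. The letters GAGGAAGT of PU.1, a factor of myeloid and B cells, were found in 1.63%, 1.27% and 1.17%, beside 1.38% of poised bins. Those of CEBP (TTGCNNAA) were found in 8.84% of members, 8.13% of enhancer bins and 9.02% of autosomal bins, beside 7.89% of poised bins. Those of the HNF1 site (GTTAATNA) were found in 2.09%, 2.15% and 2.47%, beside 1.92% of poised bins. Those of ETS (CCGGAAGT) were found in 0.204%, 0.158% and 0.121%, beside 0.184% of poised bins. The letters AGATAA, part of the site of GATA factors, stood in 12.0% of members, 11.8% of enhancer bins and 12.8% of autosomal bins, beside 10.8% of poised bins. An E-box (CACGTG) was in 2.49% of members, 2.55% of enhancer bins and 1.94% of autosomal bins, beside 2.64% of poised bins. The CTCF core AGGGGGC was in 2.33% of members, 2.42% of poised bins and 1.54% of autosomal bins. A match is a run of letters and not a bound site.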

How the data were processed

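The 3 segmentations, 1 for each group (SD 3m, SD 12m, CR 12m), were used, and SD 6m was not analysed here. The authors aligned single-end reads to mm10 with BWA (0.6.2-r126), removed unmapped and duplicate reads with SAMtools (0.1.18), merged the libraries of each group and mark, and trained 1 ChromHMM model of 8 states. The deposited value is a state number per 200 bp bin, with no read count. Merging hides the spread between mice, and a bin near a boundary between states can change its label with little change of signal.

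State numbers were expanded into bins, and classes, distances and stretches were computed with Python 3.11.15 and NumPy 2.4.6. Functions were checked on simulated segmentations. The chromosome lengths matched GRCm38, from which sequence and RefSeq genes (26089 with a curated transcript, longest transcript for the TSS) were taken. Groups followed the labels. No test was run, since each group was 1 segmentation.

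Named were the 5 longest stretches of members, the 3 longest runs of each class, the 15 protein-coding genes with most members within 2 kb of the TSS (of 32 tied at 21 members, those with most shared bins), the 10 with most in the body, and members of 19 gene lists with a member in the TSS window. For genes leading by TSS the bin upstream of the gene is printed in place of the TSS bin, which holds transcribed sequence. Some items that these rules choose are not reported here. The members and lists were chosen with earlier results of these data known. List genes on chromosome X (Otc, Vsig4, Sox3 and Gpc3) were outside the members. Alternatives changed the chromosomes, borders, stretch length, window size, starting states and TSS set.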

Additional observations from a re-analysis of the deposited data

Results flagged for a closer look

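Chromosome X lies outside the comparisons above and showed a signal by the same rule. Of its 26471 enhancer bins of SD 3m, the SD group had 4.47% in state 6 at 12 months (Wilson 95% interval 4.23 to 4.72) and the CR group 2.86% (2.66 to 3.06), above the autosomal shares of 0.873% and 1.12% and in the opposite order of the diets (ratio 1.56). Of the 1518 bins, 762 were SD only, 335 CR only and 421 both. Poised bins were 20182 of its enhancer bins, a larger part than on the autosomes, and among them the shares were 5.51% in SD and 3.64% in CR, beside 3.19% and 3.89% of autosomal poised bins, so that in CR the share of poised bins was lower on chromosome X. State 6 covered 27.1% of the chromosome in SD 3m, beside 4.49% to 12.6% of the autosomes. The cause was not tested.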

How the results depend on the processing

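Leaving out the chromosome starts (3 Mb) removed no enhancer bin, so its 7 values say nothing. Of the other 32 recomputed values, 11 stayed within the 95% interval of the reported one and 21 moved outside it, and none changed the order of the diets. No value moved without state 6 stretches under 1 kb. With chromosome X added the SD 12m share was 0.908%, the CR 12m share 1.14%, their ratio 0.796 and GC 44.6%. Without bins within 1 kb of an enhancer border they were 0.606%, 0.835%, 0.726 and 45.1%, with 30.6% of members in both groups and 8.88% within 2 kb of a TSS. In 10 kb windows the shares were 0.801% and 1.02%, with 31.6% in both. With states 3 and 4 alone the shares were 0.0900% and 0.189%, the ratio 0.477, 20.9% in both, 32.0% within 1 kb of state 6 in SD 3m, GC 42.5% and 13.7% near a TSS. With all curated transcripts 12.9% of members were within 2 kb of a TSS. No paired analysis was possible because each group is 1 merged segmentation and no test was run. The read depth of the merged libraries is unknown and limits every label. The intervals treat bins as independent, which neighbouring bins are not, and the spread between mice is not in them.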

Other observations

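Beyond the genes named above, the classes had leading genes of their own by members in the gene body, chosen after the values were seen. SD-only bins were many in Ccbe1, which guides lymphatic vessel growth (87 of 125 members), in the guidance cue gene Ntn1 (83 of 106), in the chloride channel gene Cftr of bile duct cells (59 of 59) and in Samsn1, an adaptor of lymphocytes (56 of 56). CR-only bins were many in Col5a1 (131 of 147), in the exchange factor gene Kalrn (130 of 143), in Pik3cd, the leukocyte phosphoinositide kinase (108 of 108), and in Fgd5 of endothelial cells (97 of 97). Shared bins led in Lamb1, a laminin chain of basement membranes (129 of 154), Fhl2 (98 of 118) and Ikzf3, a lymphocyte transcription factor (89 of 121). In Ikzf3 all 121 body enhancer bins of SD 3m were members.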
